A study of Mus musculus with 66 samples.

Results

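Cytochrome c oxidase, complex IV of the mitochondrial respiratory chain, passes electrons from cytochrome c to oxygen. Its nuclear-encoded subunits surround a catalytic core encoded in the mitochondrion, and some of them exist as paralogous pairs: a form found mainly in striated muscle and a form found in most tissues. The muscle forms studied here were Cox6a2, Cox7a1 and Cox8b, and their general counterparts were Cox6a1, Cox7a2 and Cox8a. Cox4i1, Cox5a and Cox5b are subunits used in both settings.

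These 9 genes were taken by name from the 8252 genes that had a probe set of their own on the Av2 version of the mouse U74 array, and all 12 probe sets annotated to 1 of them alone were kept: 4 for the 3 muscle isoforms, 3 for the 3 general isoforms and 5 for the 3 shared subunits. All 12 passed the filter on dim signals. Total RNA came from mouse gastrocnemius muscle that was regenerating after cardiotoxin, a cobra venom peptide that lyses muscle fibres, had been injected. The 54 Av2 arrays fall into 27 groups of 2: controls and 26 times from 12 h to 40 d. A further 12 arrays of the earlier A version covered 5 of these times (12 h, 1 d, 2 d, 4 d, 10 d) and the controls. The labels give an age of 8 weeks for control arrays, and 100 ul of 10 uM cardiotoxin on A arrays; the sources used here state no genotype, strain or sex. The labels do not tie arrays to animals, so p-values measure only the spread between arrays, which may be technical. In whole muscle, fewer fibres and less RNA per fibre cannot be told apart.

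The arrays were scaled alike, with trimmed means between 800.4 and 800.5, and 76.4% to 83.4% of probe sets lay above the floor of 64.7, under which intensities were not ordered. The 2 arrays of 12 h correlated least (r = 0.90 across probe sets): replicate 1 lay nearer the controls than replicate 2 for most members. On 8 arrays the 3′ probe set of b-actin lay under 0.25 of its 5′ probe set, and 5 of these were in the window from 12 h to 2 d (12 h replicate 2 and both arrays of 1 d and 2 d), with 4 d replicates 1 and 2 and 5 d replicate 1 as the others. On 9 arrays the 3′ probe set of Gapdh lay under 0.2 of its 5′ probe set. They were replicate 2 of 9.5, 12, 14 and 20 d and replicate 1 of 11, 16 and 40 d. Both arrays of 30 d were the others. On the labelled tissue, markers of adult fast fibres were bright in the controls, among them Tnnt3 at 55987 ± 2773 (SD, n = 2) and Ckm, muscle creatine kinase, at 18460 ± 1718.

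The promoters below, from RefSeq on GRCm38.p6, are shown for both muscle isoforms with an entry and for the general isoforms that stood well above the floor. Cox6a2, the muscle counterpart of Cox6a1, had no entry. Each runs from 250 bases before to 50 bases after the gene's start, and 7 of the 9 members had an entry. Capitals mark matches to the E-box CANNTG, the core bound by myogenic factors; to the NRF-1 core, GCGCA and GCGC with 1 base between; or to the ETS core CCGGAA, bound by GABP. Both strands were searched, as they were for the MEF2 site and for the site of oestrogen-related receptors, AAGGTCA. No 2 motifs overlapped in the sequences shown.
Cox7a1, chr7:30183921-30184220, + strand: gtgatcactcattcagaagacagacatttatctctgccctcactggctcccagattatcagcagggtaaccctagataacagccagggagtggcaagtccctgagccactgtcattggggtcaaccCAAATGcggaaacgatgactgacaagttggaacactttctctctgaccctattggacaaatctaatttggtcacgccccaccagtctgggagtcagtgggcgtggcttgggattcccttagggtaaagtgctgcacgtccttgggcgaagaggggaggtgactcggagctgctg
Cox8b, chr7:140900397-140900696, - strand: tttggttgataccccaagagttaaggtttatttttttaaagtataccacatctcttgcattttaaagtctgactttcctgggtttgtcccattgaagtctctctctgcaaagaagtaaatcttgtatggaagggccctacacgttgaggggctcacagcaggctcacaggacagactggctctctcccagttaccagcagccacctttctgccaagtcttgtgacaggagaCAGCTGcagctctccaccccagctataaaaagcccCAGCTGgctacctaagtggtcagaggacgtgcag
Cox6a1, chr5:115348909-115349208, - strand: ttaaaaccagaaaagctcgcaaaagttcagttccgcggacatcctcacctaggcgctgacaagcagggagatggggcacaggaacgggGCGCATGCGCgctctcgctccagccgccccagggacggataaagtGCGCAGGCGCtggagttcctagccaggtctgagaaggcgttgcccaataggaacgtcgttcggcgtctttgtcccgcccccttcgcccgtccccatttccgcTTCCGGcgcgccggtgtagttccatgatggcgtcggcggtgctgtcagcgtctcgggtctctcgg
Cox7a2, chr9:79759804-79760103, - strand: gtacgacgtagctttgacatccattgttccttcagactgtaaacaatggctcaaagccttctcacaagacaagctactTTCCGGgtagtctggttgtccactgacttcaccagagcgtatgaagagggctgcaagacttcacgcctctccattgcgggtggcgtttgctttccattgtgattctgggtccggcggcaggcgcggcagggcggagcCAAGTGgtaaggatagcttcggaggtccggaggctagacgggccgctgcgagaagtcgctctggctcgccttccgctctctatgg
The Cox8b window held 2 E-boxes of the same letters, CAGCTG, and the Cox7a1 window held 1. The Cox6a1 window held 2 NRF-1 cores and 1 ETS core and no E-box. The Cox7a2 window held 1 ETS core and 1 E-box. Of the 7 member promoters, 5 held an E-box, as did 72.3% of all 32851 promoters; 1 held an NRF-1 core (4.6% of all), 3 an ETS core (14.9%), and none a MEF2 site (1.86%) or the AAGGTCA site (4.72%). These matches describe letters, not bound sites.

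All 3 muscle isoforms fell to a small part of their control level by 3 to 4 d and climbed back over weeks. Over the whole course, 7 of the 12 member probe sets changed (limma F test, Benjamini-Hochberg), against 48.7% of the 11997 probe sets tested. These were Cox6a2 (adjusted p = 2.17e-08), Cox7a1 (1.27e-09), both probe sets of Cox8b (4.04e-11 and 5.27e-08), Cox6a1 (1.27e-11), Cox7a2 (4e-04) and Cox5b (0.00336). Cox8a and both probe sets each of Cox4i1 and Cox5a had adjusted p between 0.148 and 0.634.

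Cox6a2 encodes the muscle form of subunit VIa. Its intensity was 41222 and 42924 on the 2 controls, and 3032 and 3061 on the arrays of 3 d, the lowest time, 13.8-fold below the control mean. From 3 to 4.5 d its 8 arrays lay between 2620 and 11916 with a median of 5853. All 52 arrays after injection lay below both controls. The log2 change was -1.58 ± 0.30 (SE of the fit) from 12 h to 2 d (limma, adjusted p = 7.07e-05), -3.03 ± 0.29 from 3 to 4.5 d (4.57e-10), -1.37 ± 0.28 from 5 to 7.5 d (0.000199), -0.93 ± 0.28 from 8 to 10 d (0.0112) and -0.91 ± 0.28 from 11 to 16 d (0.0166). From 20 to 40 d it was -0.80 ± 0.30 and did not pass (0.109), with arrays between 12871 and 36957. Without control replicate 1 or 2 the adjusted p was 0.0782 or 0.108 from 8 to 10 d and 0.106 or 0.145 from 11 to 16 d, and without 40 d replicate 2 the last window passed (-0.97, 0.0373). With 30 and 40 d in place of the controls the change from 12 h to 2 d was -0.54 (0.0693), and that from 5 to 7.5 d -0.33 (0.254). Quantile normalization gave -0.49 (0.133) from 8 to 10 d and -0.32 (0.389) from 11 to 16 d.

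Cox7a1, the muscle form of subunit VIIa, fell the furthest of the members. It measured 3277 and 4111 on the controls and 11.6 and 53.0 at 4 d, where both arrays lay below the floor, so the fall was at least 57.1-fold. At 3 d the arrays read 110 and 65.8, above the floor. The log2 change was -3.36 ± 0.46 from 12 h to 2 d (limma, adjusted p = 5.74e-07), -4.87 ± 0.44 from 3 to 4.5 d (1.91e-10), -2.59 ± 0.43 from 5 to 7.5 d (1.21e-05) and -1.84 ± 0.44 from 8 to 10 d (0.00131). It was -1.08 ± 0.44 from 11 to 16 d (0.0705) and -0.57 ± 0.46 from 20 to 40 d (0.566). Of the 52 arrays after injection 51 lay below both controls; the exception, at 3358, was an array of 20 d.

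Cox8b, the muscle form of subunit VIII, had 2 probe sets that moved together. The brighter read 16064 and 20345 on the controls and 972 and 995 at 3 d, 18.5-fold lower; the dimmer fell 9.65-fold at the same time. The brighter changed by -3.02 ± 0.30 from 12 h to 2 d (limma, adjusted p = 1.48e-09), -3.87 ± 0.29 from 3 to 4.5 d (2.93e-12), -2.51 ± 0.28 from 5 to 7.5 d (1.42e-08), -1.63 ± 0.28 from 8 to 10 d (3.12e-05) and -1.15 ± 0.28 from 11 to 16 d (0.00254). The value from 20 to 40 d was -0.84 ± 0.30 (0.084). The dimmer changed by -2.52 from 3 to 4.5 d (1.63e-09) and by -0.90 from 11 to 16 d (0.00781). Every array after injection lay below both controls on both probe sets. From 11 to 16 d the call ended on the brighter probe set without control replicate 1 (adjusted p = 0.0848) and on the dimmer without control replicate 1 (0.125) or 2 (0.0511).

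**Figure D1:**
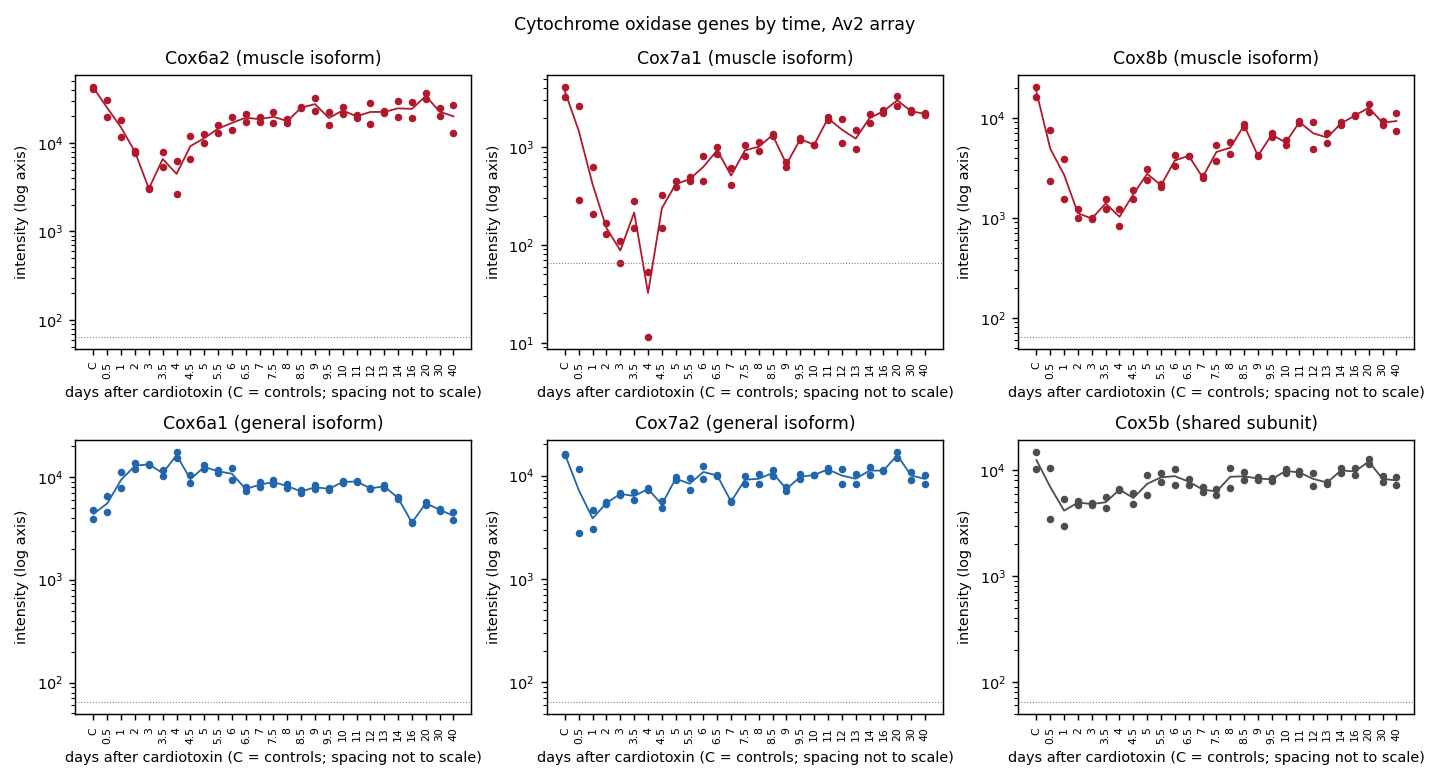
Intensity (log axis) of 6 members on each Av2 array against time after cardiotoxin; points are arrays, lines join the means of 2, and the dotted line is the floor of 64.7. The 3 muscle isoforms dip to their lowest at 3 or 4 d, while Cox6a1 is highest at 4 d.

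The general isoforms did not share 1 course. Cox6a1, the general form of subunit VIa, rose. It was read by 1 probe set, of the _f_at type that may read related sequences. Its controls read 3921 and 4809 and its arrays of 4 d 15295 and 17322, 3.74-fold higher in the mean, and 46 of 52 arrays after injection lay above both controls. The log2 change was 0.99 ± 0.13 from 12 h to 2 d (limma, adjusted p = 3.2e-07), 1.49 ± 0.13 from 3 to 4.5 d (4.85e-11), 1.16 ± 0.12 from 5 to 7.5 d (5.26e-09), 0.87 ± 0.12 from 8 to 10 d (1.71e-06) and 0.61 ± 0.12 from 11 to 16 d (0.000414). From 20 to 40 d it was 0.14 ± 0.13 (0.63). At 16 d both arrays, 3523 and 3650, lay below both controls, while those of 14 d averaged 6229 ± 245. Without control replicate 2 the change from 11 to 16 d was 0.46 (0.0655).

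Cox7a2, the general form of subunit VIIa, fell. It read 15907 and 16175 on the controls and 3029 and 4687 at 1 d, 4.16-fold lower in the mean. The 12 h arrays differed, at 11696 and 2752. Its change was -1.72 ± 0.27 from 12 h to 2 d (limma, adjusted p = 4.72e-06), -1.34 ± 0.26 from 3 to 4.5 d (8.7e-05), -0.89 ± 0.25 from 5 to 7.5 d (0.00532) and -0.78 ± 0.25 from 8 to 10 d (0.0183). It was -0.61 ± 0.25 from 11 to 16 d (0.0858) and -0.50 ± 0.27 from 20 to 40 d (0.311). Without control replicate 1 or 2 the adjusted p was 0.0618 or 0.0561 from 5 to 7.5 d and 0.127 or 0.119 from 8 to 10 d. Against 30 and 40 d the change from 5 to 7.5 d was -0.15 (0.615). The third general isoform, Cox8a, was dim: its controls read 50.2 and 129, on either side of the floor, and no window passed (adjusted p between 0.783 and 0.992). At that signal a change was not measurable with confidence.

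Among the shared subunits, Cox5b, a subunit found with either isoform set, was the bright one. It read 10189 and 14764 on the controls and 2983 and 5320 at 1 d, 3.01-fold lower. It changed by -1.32 ± 0.26 from 12 h to 2 d (limma, adjusted p = 0.000107), -1.19 ± 0.25 from 3 to 4.5 d (0.000228) and -0.72 ± 0.24 from 5 to 7.5 d (0.0192), and the later windows did not pass (0.134 to 0.427). Its change from 5 to 7.5 d was -0.45 (0.373) without control replicate 1, -0.53 (0.0838) after quantile normalization and -0.12 (0.677) against 30 and 40 d. Cox4i1 controls read 314 and 708 on 1 probe set and 492 and 637 on the other, and neither passed in any window. Cox5a passed on its brighter probe set from 3 to 4.5 d alone (-1.18 ± 0.46, adjusted p = 0.0397, 7 of 8 arrays below both controls), and that call ended without control replicate 1, 3 d replicate 2, or replicate 1 of 3.5, 4 or 4.5 d. Its other probe set lay at the floor on both controls.

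Counted over the 12 probe sets, 6 were lower and 1 higher from 12 h to 2 d, where 18.5% and 17.7% of all probe sets tested were called lower and higher. From 3 to 4.5 d it was 7 lower and 1 higher (18.5% and 22.2% of all), from 5 to 7.5 d 6 and 1 (16.1% and 19%), from 8 to 10 d 5 and 1 (13.8% and 16.9%), and from 11 to 16 d 3 and 1 (10.2% and 13.9%). Without control replicate 1 or 2, 3 were lower from 8 to 10 d, and from 11 to 16 d 0 or 1 was lower. From 20 to 40 d none passed (2.12% and 5.01%). The member median change was -1.18 from 3 to 4.5 d, against 0.00 over all probe sets. Taken time by time, Cox6a2 was lower at 15 of 26 times, Cox7a1 at 18 and each Cox8b probe set at 20, and 9% of all probe sets were lower at 13 or more times. Cox7a2 was lower at 10 times and Cox5b at 9, while Cox6a1 was higher at 21. The shares of all probe sets that reach these counts were not computed, so the counts stand as a description.

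**Figure D2:**
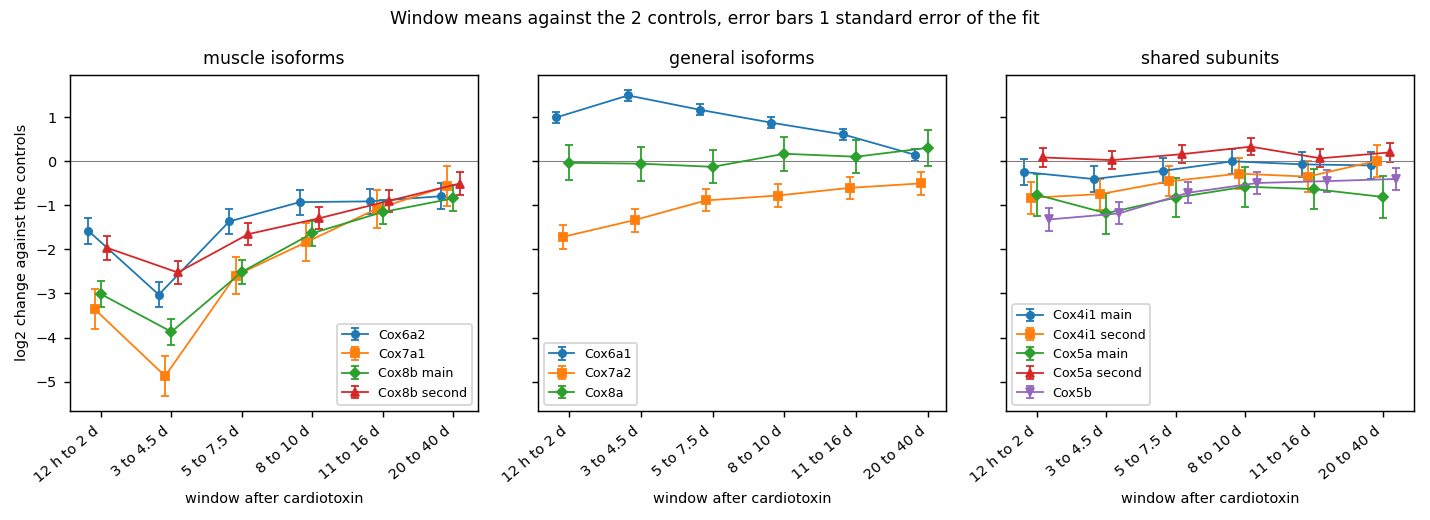
Log2 change of each of the 12 probe sets against the 2 controls in 6 windows, with 1 standard error of the fit. The muscle isoforms lie between -2.52 and -4.87 from 3 to 4.5 d, Cox6a1 lies above 0 and Cox7a2 below it.

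In the window from 5 to 7.5 d Cox6a2, Cox7a1 and the brighter Cox8b probe set still lay 2.58-fold, 6.04-fold and 5.70-fold below the controls. On the log2 scale, the step between 3 to 4.5 d and 5 to 7.5 d was even so the largest rise of the muscle isoforms. Cox6a2 rose by 1.66 ± 0.17 log2 units (limma, adjusted p = 1.3e-08), Cox7a1 by 2.28 ± 0.26 (1.08e-07) and Cox8b by 1.36 ± 0.17 (3.91e-07). Cox7a2 rose by 0.45 ± 0.15 (0.0315) and Cox5b by 0.47 ± 0.14 (0.0176), and 9.16% of all probe sets were called higher in this step. Cox6a1 moved the other way, -0.32 ± 0.07 (0.00142; 12% of all lower). Between 11 to 16 d and 20 to 40 d, Cox6a1 was -0.46 ± 0.08 (0.000109; 11.3% of all lower), and no other member passed. As a description, Cox5b came back to within 1 log2 unit of the control mean for good at 5 d, Cox7a2 at 9.5 d, and Cox7a1 at 14 d. Cox8b did so at 14 d on its dimmer probe set and 40 d on its brighter. Cox6a2 did not, with 12871 on replicate 1 of 40 d, an array low in the Gapdh 3′ probe set. Without that array Cox6a2 did so at 12 d. The brighter Cox8b probe set did not return without control replicate 2 or without 40 d replicate 2, and did so at 14 d without control replicate 1.

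Within each pair, the log2 difference between the muscle and the general isoform on the same array was tested in the same fit, with 3 pairs compared over 6 windows. Cox6a2 minus Cox6a1 lay 0.18 on either side of its control mean on the 2 controls and at -5.39 and -5.41 relative to it at 3 d. Its mean change was -2.57 ± 0.35 from 12 h to 2 d (limma, adjusted p = 6.03e-07), -4.52 ± 0.34 from 3 to 4.5 d (4.09e-12), -2.53 ± 0.33 from 5 to 7.5 d (2.7e-07), -1.80 ± 0.33 from 8 to 10 d (8.13e-05), -1.52 ± 0.33 from 11 to 16 d (0.000914) and -0.94 ± 0.35 from 20 to 40 d (0.109). Without 40 d replicate 2 the last value was -1.16 (0.0346). Here the isoforms moved in opposite directions, with Cox6a1 read by its _f_at probe set alone.

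Cox7a1 minus Cox7a2 changed although both genes fell, because the muscle form fell further. The difference was -1.64 ± 0.28 from 12 h to 2 d (limma, adjusted p = 1.57e-05), -3.53 ± 0.27 from 3 to 4.5 d (4.34e-12), -1.70 ± 0.26 from 5 to 7.5 d (3.34e-06) and -1.06 ± 0.26 from 8 to 10 d (0.00208). It then lay at -0.48 ± 0.26 (0.212) and -0.06 ± 0.28 (0.966). Without control replicate 1 the change from 8 to 10 d was -0.91 (0.0704). At 30 and 40 d its 4 arrays lay between -0.07 and 0.16, within the span of the controls but for 1 array. Cox8b minus Cox8a ran from -2.98 ± 0.43 through -3.81 ± 0.42 to -1.25 ± 0.41 from 11 to 16 d (0.0235), but it carries the dim Cox8a and so largely repeats the Cox8b fall. Without control replicate 1 or 2 the last of these was -1.58 (0.0514) or -0.93 (0.324), and without control replicate 2 the value from 8 to 10 d was -1.47 (0.0618).

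Set against the shared subunit Cox5b, a comparison added after the values were seen, Cox7a2 differed from it only from 12 h to 2 d (-0.40 ± 0.14, limma, adjusted p = 0.0313). In later windows the difference lay between -0.28 and -0.10. Cox7a1 fell further than Cox5b by 3.68 log2 units from 3 to 4.5 d (1.07e-11) and Cox8b by 2.68 (3.03e-12). Cox6a2 fell further from 3 to 4.5 d alone (-1.84 ± 0.32, 2.06e-05). Cox6a1 rose relative to Cox5b by 2.68 in that window (2.04e-09).

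**Figure D3:**
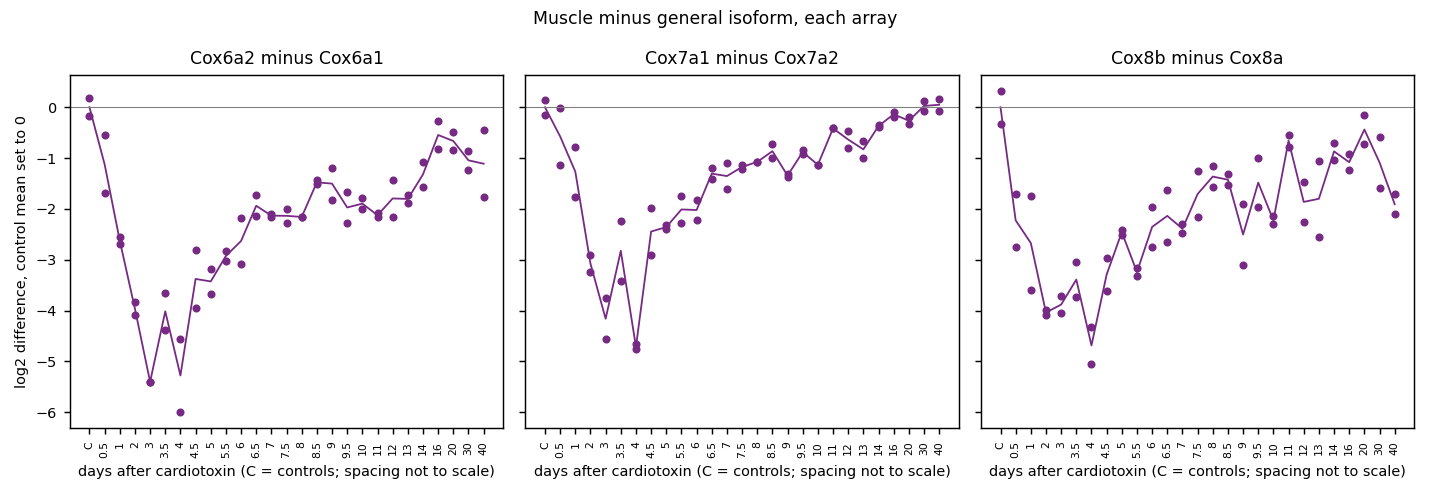
Log2 difference of the muscle minus the general isoform on each array, with the control mean set to 0, against time; points are arrays and lines join means. All 3 pairs are lowest at 3 or 4 d, and Cox7a1 minus Cox7a2 lies near 0 at 30 and 40 d.

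Of the 27 group means, those of Cox7a1 and Cox8b correlated most among the members (r = 0.98), and Cox6a2 with Cox7a1 at 0.92. Cox7a2 and Cox5b correlated at 0.92, and Cox6a1 with the muscle isoforms between -0.84 and -0.75. All points share the same arrays. The genes closest to Cox6a2 were Ckm (0.98), Tnnt3, fast troponin T (0.98), and Pygm, muscle glycogen phosphorylase (0.97). Closest to Cox7a1 were Pvalb, the calcium buffer parvalbumin (0.98), Ndrg2 (0.98) and Prkcq (0.98). Closest to Cox8b were Ndufb2 of complex I, Sdhb of complex II and Tcea3 (all 0.97). Closest to Cox6a1 were S100a6 (0.96), Clta, clathrin light chain (0.95), and Glmp (0.95). Closest to Cox5b were Ndufb10 of complex I (0.93), Ss18l2 (0.93) and Uqcrq of complex III (0.93), and closest to Cox7a2 were Tmem126a, Ndufv3 and 0610012G03Rik (0.95 each).

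Lists of other genes of complex IV and of its regulators also held called members. Of 6 other subunits and relatives measured, 3 fell and none rose from 12 h to 2 d, when 18.5% of all probe sets were called lower. Cox6c, a subunit with no muscle form, fell by 1.92 log2 units (limma, adjusted p = 2.95e-07), Cox7b by 1.53 (0.00013) and Cox7a2l, which helps form supercomplexes, by 0.62 (0.000917). From 3 to 4.5 d 2 of 6 fell, and the list's median was -0.06 against 0.00 over all probe sets. Of 10 assembly factors, 8 fell from 12 h to 2 d and 5 from 3 to 4.5 d (18.5% of all in each window), with Lrpprc, which stabilises mitochondrial messenger RNAs, at -1.07 (9.06e-05) and -0.90 (0.000442), and the copper chaperone Cox17 at -0.77 (0.000287) and -0.75 (0.000214). Of 11 genes of cytochrome c and regulators of mitochondrial genes, 5 fell and 1 rose from 3 to 4.5 d (18.5% and 22.2% of all). Cycs, somatic cytochrome c, was at -2.01 (5.52e-07), Esrra at -1.60 (1.15e-08) and Ppara, a regulator of fat oxidation, at -2.18 (8.62e-07). Gabpb1, a subunit of the factor that binds ETS cores, was at 0.84 (0.000158).

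Markers of other cells moved over the same windows. From 3 to 4.5 d, 11 of 14 adult fast fibre markers fell (median -1.82), 10 of 10 macrophage markers rose (median 3.77), and 5 of 5 markers of forming fibres rose (median 3.82). Summed macrophage intensity lay between 5388 and 8441 on the controls and between 64547 and 104877 from 3 to 4.5 d, and no defining marker was at 0. Summed fast fibre intensity lay between 368733 and 440628 on the controls and between 89896 and 213420 in that window. Slow or oxidative fibre markers were lower for 7 of 8 from 12 h to 2 d (median -2.25) and 4 of 8 from 3 to 4.5 d (median -2.20). Neutrophil markers were higher for 4 of 5 from 12 h to 2 d (median 6.46) and 3 of 5 from 3 to 4.5 d. In the latter window 4 of 6 fibroblast markers were higher and 1 lower, 1 of 4 endothelial markers was lower, and no heart marker of 3 passed. Of all probe sets tested, 18.5% were called lower and 22.2% higher from 3 to 4.5 d, and 18.5% and 17.7% from 12 h to 2 d. White fat markers were lower for 3 of 3 in each window from 3 to 16 d (medians between -1.80 and -1.60). In those windows 10.2% to 18.5% of all probe sets were called lower. The part of these cells in the changes of the isoforms was not tested. Of 3 brown fat markers, a tissue that also uses Cox7a1 and Cox8b, none passed in any window, and Ucp1 read 82.8 ± 14.8 (SD, n = 2) in the controls. The macrophage list was still 7 of 10 higher from 20 to 40 d, when no member passed and 5.01% of all probe sets were called higher.

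**Figure D4:**
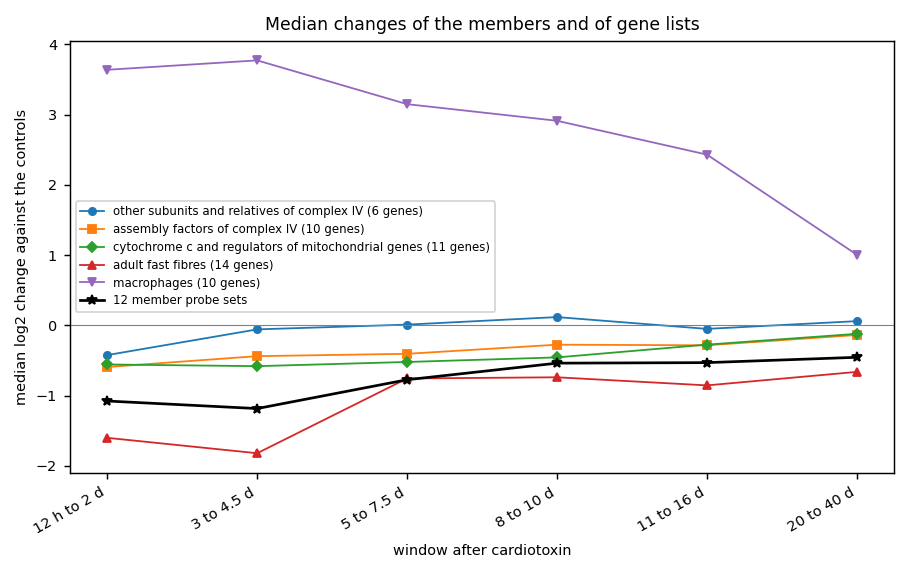
Median log2 change against the controls of the 12 member probe sets and of 5 gene lists in 6 windows. The macrophage median lies at 3.77 and the fast fibre median at -1.82 from 3 to 4.5 d, with the members at -1.18.

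The A arrays give a second reading in which the arrays of 1, 2, 4 and 10 d carry other sample codes than their Av2 counterparts. Those of the controls and of 12 h carry the same codes on both versions. Every A change is thus measured against controls that share the Av2 control codes. There were 11 member probe sets on A, of which 6 passed the filter; the 3 of Cox8b were listed at 0 on all 12 arrays, Cox8a and 1 of Cox4i1 never passed the floor of 727, and Cox5a had none. Cox6a2 read 25387 and 25462 on the controls and 3850 and 1446 at 4 d, with no overlap (log2 change -3.43 ± 0.47, limma, adjusted p = 0.000921; 46.7% of 4459 probe sets called in either direction). At 2 d it was -2.33 ± 0.47 (0.00474; 49.4% called).

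Cox6a1 rose on A as well, from 4879 and 4325 to 13430 and 14372 at 4 d. Its change was 0.80 ± 0.11 at 1 d (44.2% of all called), 1.36 ± 0.11 at 2 d, 1.60 ± 0.11 at 4 d and 0.92 ± 0.11 at 10 d (27% called), and passed at each, while 12 h, at 0.16 ± 0.11, did not (20.7% called). Cox7a1 lay below the floor on both arrays of 2 d and of 4 d, so it was at least 6.58-fold below the controls. Cox7a2 passed at 1 d alone, at -2.26 ± 0.68, and Cox5b at 1 and 2 d, at -1.77 ± 0.48 and -1.36 ± 0.48. Cox4i1 was tested on A by its _f_at probe set, which passed in no window on Av2. At single times on Av2 that probe set passed at 3 d alone (-1.39 ± 0.45, limma, adjusted p = 0.0142). It lay at -0.90, -0.92 and -0.96 there at 1, 2 and 4 d. On A it read 2823 and 2739 on the controls and 1035 and 859 at 4 d, and passed at 1, 2 and 4 d (-1.76, -1.90 and -1.56 ± 0.42). On A 1 array of 1 d and 1 of 2 d lay below the floor. With the floor at 0.5 times the call at 4 d ended (0.0548). Cox6a2 minus Cox6a1 was -5.03 ± 0.48 at 4 d (0.000212). Cox7a1 minus Cox7a2 did not pass at 12 h (0.03 ± 0.29, adjusted p = 1) or 1 d (-0.42, 0.286), and passed at 2 d (-1.19, 0.0106), 4 d (-1.59, 0.0031) and 10 d (-1.40, 0.0108), with Cox7a1 set to the floor on both arrays of 2 d and of 4 d. With the floor doubled these 3 did not pass (-0.19, 0.742; -0.59, 0.24; -1.09, 0.0637). The calls of Cox7a2 at 1 d, Cox5b at 1 and 2 d, Cox4i1 at 4 d and Cox6a2 minus Cox6a1 at 1 d ended both without control replicate 1 and without control replicate 2 (adjusted p between 0.0522 and 0.176). So did the call of Cox7a1 minus Cox7a2 at 10 d (0.0569 and 0.053). Those of Cox4i1 (0.0501) and Cox7a1 (0.0515) at 1 d and of Cox7a1 minus Cox7a2 at 2 d (0.0538) ended without control replicate 1 alone.

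**Figure D5:**
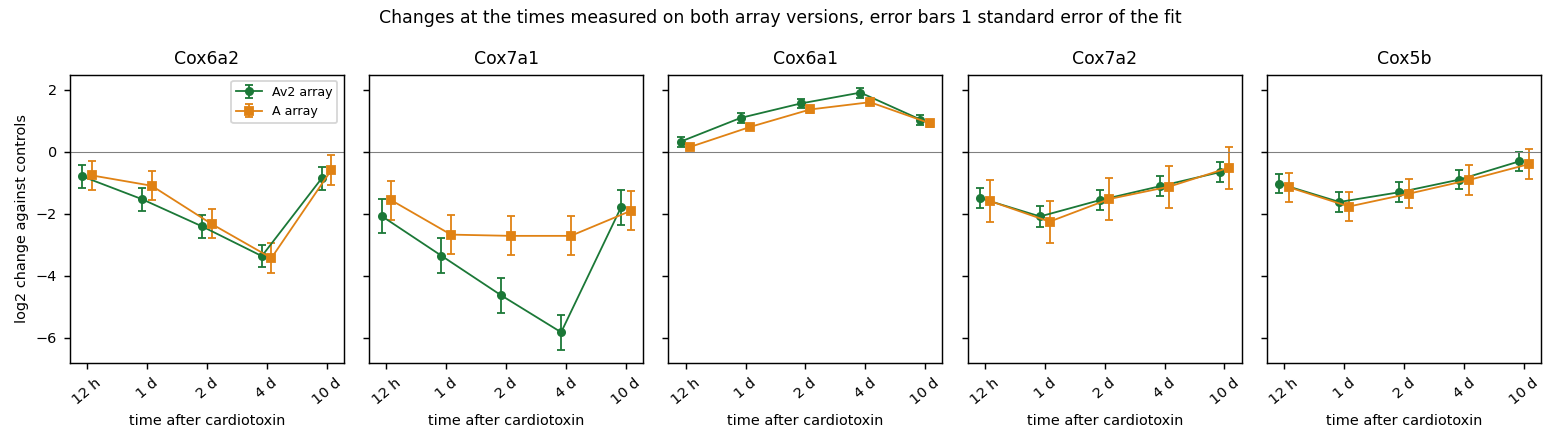
Log2 change against the controls of 5 genes at the 5 times measured on both array versions, with 1 standard error of the fit. Cox7a1 levels off on the A array at 2 and 4 d because both arrays lie at its floor.

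The window from 12 h to 2 d rests on the arrays low in the b-actin 3′ probe set. Without them only 12 h replicate 1 was left, the earliest time, and its spread was taken from the other groups. On that assumption 1 member was lower (Cox8b, -1.27) and none higher, which says nothing of 1 and 2 d. From 3 to 4.5 d the values without them were -2.91 for Cox6a2, -4.55 for Cox7a1, -3.77 for Cox8b and 1.35 for Cox6a1, and all passed.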

How the data were processed

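Total RNA of mouse gastrocnemius was measured on 54 Av2 and 12 A arrays. The authors deposited 1 linear intensity per probe set and array, per the file headers; its software and scaling are not stated in the sources used here. On A, 16.0% of the intensities are below 0. Of 12488 Av2 probe sets, 10833 have 1 gene symbol, 396 several and 1193 none in the platform annotation, besides 66 control probe sets.

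Low intensities were set to a minimum before log2 was taken. This floor on Av2 is 64.7, the 20th percentile of the median array, and the A floor is 727 (the root mean square of its values below 0, times 2). Testing required a signal over that minimum on at least 2 arrays and covered 11997 probe sets on Av2 and 4459 on A. Folds at single times are ratios of means at or above the floor. Folds of whole windows are the log2 change of the fit turned back to the linear scale. limma 3.58.1 (R 4.3.3) fitted 1 mean per time group with 27 residual degrees of freedom. P-values were adjusted by Benjamini-Hochberg over all probe sets tested within each comparison, at 0.05, and isoform differences over the table with those rows added. The fit was tested on simulated data. Python 3.11.15 drew the figures with matplotlib 3.10.9.

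A gene's main probe set is the one with the highest mean level. Named genes are the members, the 3 genes most correlated with each, and called genes of fixed lists. Members, lists and tests were chosen with earlier results of these data known. Probe sets ending in _f_at or _r_at may read related sequences, which the sources used here do not settle. Among the members tested, the only Cox6a1 probe set, on both array versions, ends in _f_at. So does the Cox4i1 probe set tested on A, and the brighter Cox8b probe set on Av2 ends in _r_at. Arrays are few, which limits the precision. Protein sequences were not used here. Alternatives covered scaling, floor, filter, variance model, code numbers, arrays left out and other controls.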

Additional observations from a re-analysis of the deposited data

How the results depend on the processing

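From 3 to 4.5 d, Cox6a2, Cox7a1, Cox8b, Cox6a1, Cox7a2, Cox5b and the 3 isoform differences kept direction and call under every alternative run, with Cox6a2 between -3.24 and -1.99 and Cox6a1 between 1.32 and 1.64. Both arrays of 30 d and replicate 1 of 40 d, used as an alternative to the controls, were low in the Gapdh 3′ probe set. All windows rest on 2 controls. With 30 and 40 d in their place Cox6a2 lost its call from 12 h to 2 d. From 5 to 7.5 d, 8 to 10 d and 11 to 16 d, 3, 3 and 0 member probe sets were lower. From 8 to 10 d and 11 to 16 d, Cox8b minus Cox8a was -0.30 and 0.24. Over the same windows Cox6a2 was 0.11 and 0.12 and Cox5b 0.10 and 0.14. Cox6a2 minus Cox6a1 was -0.44 and Cox7a2 0.13 from 11 to 16 d. With times whose 2 codes share a number left out, only 16 d stayed from 11 to 16 d: 807 probe sets were called, 0 members lower and 0 higher, with Cox6a2 minus Cox6a1 at -0.55, Cox8b minus Cox8a at -1.08 and Cox6a1 at -0.28. Quantile normalization left 3 member probe sets lower from 8 to 10 d. It ended the calls of Cox5b from 5 to 7.5 d and of Cox6a2 from 11 to 16 d. From 11 to 16 d the limma call of Cox8b minus Cox8a ended with the floor at 0.5 times (-1.34, adjusted p = 0.107). It also ended with the other Cox8b probe set (-0.999, 0.104) and without 9 arrays low in the Gapdh 3′ probe set (-1.20, 0.0723). From 20 to 40 d its main value, -1.14 ± 0.43, did not pass (0.114), and with the floor doubled it passed at -1.02 (0.0286).

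Both sets of arrays below were left out after the data were seen. Without the 8 arrays low in the b-actin 3′ probe set, 1309 probe sets were called from 12 h to 2 d, with 1 member lower and 0 higher, 1 array in that window and its spread taken from other groups, and the pairs at -0.56, -0.020 and -1.70; 6 and 2 members were lower in the last 2 windows. Without the 9 low in Gapdh, 1 member probe set was lower from 11 to 16 d and 463 probe sets were called from 20 to 40 d. Single arrays left out gave 2438 to 3675 probe sets from 8 to 10 d. From 11 to 16 d and 20 to 40 d they gave 1657 to 2946 and 412 to 876. Over these 3 windows member probe sets lower ranged from 3 to 5, 0 to 3 and 0 to 1, and higher from 0 to 1. The pair ranges were -1.16 to -0.72 for Cox6a2 minus Cox6a1 from 20 to 40 d, -1.21 to -0.91 and -0.22 to 0.088 for Cox7a1 minus Cox7a2 from 8 to 10 d and 20 to 40 d, and -2.13 to -1.47 and -1.58 to -0.93 for Cox8b minus Cox8a from 8 to 10 d and 11 to 16 d. Cox6a1 from 20 to 40 d ranged from -0.0030 to 0.29. Return days ranged from 14 to 16 for Cox7a1 and 4 to 8 for Cox5b; the brighter Cox8b probe set gave 14 to 40 d and no return in 2 of 54 runs, the dimmer 13 to 14 d, and Cox6a2 returned in 1 run, at 12 d. Within 0.5 log2 units none of Cox6a2, Cox7a1, Cox8b, Cox7a2 and Cox5b returned.

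On A, Cox7a1 minus Cox7a2 was -0.47 at 12 h with the floor at 0.5 times, 0.54 at 1 d with it doubled and between -0.029 and 0.080 at 12 h without either control; a floor of 729 from gene probe sets alone, tried after results were seen, changed no call. The exact permutation test of pairs could not pass for windows of 6 arrays, where its smallest p is 0.0714. From 3 to 4.5 d all 3 pairs stood at its smallest p for 8 arrays, 0.0444. That p says only that both controls lay above every array of the window. Code number as a replicate block ended the call of Cox5a from 3 to 4.5 d and no other member or pair call; the numbers differ within most groups and are not known to pair animals. The causes were not tested.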
